A study of Bos taurus with 27 samples.

Results

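The cornified envelope and barrier genes are 10 genes (TGM1, TGM3, IVL, LOR, PPL, EVPL, CDSN, SPINK5, SERPINB5 and SERPINB7) of the 14952 gene names on a bovine expression array. They were chosen by name for their roles in cornification, with earlier results of these data known, and SERPINB7 was chosen by its measured values as well, because its signal was lost at the middle stage. Its levels between the early and middle stages and between the middle and late stages are therefore given as a description, without a test. The samples were rumen epithelium (RE) biopsies of 9 castrated Japanese Black beef cattle (*Bos taurus*) with a rumen fistula. The cattle received concentrate and rice straw throughout, in proportions that differed between the stages. Each animal was sampled at 14 months of age (early fattening stage), 21 months (middle stage) and 29 months (late stage), which gave 27 single-color Cy3 arrays, 9 per stage. No animals outside the fattening course were sampled, so age, diet and fattening cannot be told apart. The middle stage was compared with the early stage (first period), the late stage with the middle stage (second period) and the late stage with the early stage (total period), within animals.

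In a stratified squamous epithelium, cells leaving the basal layer build a cornified envelope beneath the plasma membrane as they die. Transglutaminases cross-link scaffold proteins such as involucrin, loricrin, envoplakin and periplakin into this envelope, corneodesmosomes hold the dead cells together, and proteases with their inhibitors set the pace at which those cells are shed. In the rumen, such an epithelium has to absorb fermentation acids while keeping microbes and their products out.

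Each member was measured by exactly 1 probe of 60 bases, so every result below rests on the sequence of that probe. Probes of the members that the results turn on, and that read as coding sequence, are printed 5′ to 3′ to show which stretch of each transcript was measured. On the UMD 3.1 (bosTau6) build they lie at chr10:20743805-20743864 (plus strand), chr3:17883334-17883393 (minus strand), chr25:3966962-3967021 (minus strand), chr19:56274515-56274574 (plus strand), chr23:27811080-27811139 (plus strand), chr7:61386699-61387459 (plus strand) and chr24:62530864-62530923 (plus strand). The SPINK5 probe covers 761 bases of the genome and so crosses an intron. Probes for LOR (current symbol LORICRIN), TGM3 and SERPINB5 lie at chr3:17273734-17273793 (minus strand), chr13:53261672-53261731 (minus strand) and chr24:62270995-62271054 (plus strand).
TGM1: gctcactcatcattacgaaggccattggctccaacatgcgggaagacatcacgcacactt
IVL: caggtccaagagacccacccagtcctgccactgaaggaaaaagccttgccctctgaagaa
PPL: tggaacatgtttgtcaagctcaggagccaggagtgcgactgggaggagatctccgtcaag
EVPL: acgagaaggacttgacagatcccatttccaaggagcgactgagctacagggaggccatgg
CDSN: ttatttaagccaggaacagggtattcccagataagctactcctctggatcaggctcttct
SPINK5: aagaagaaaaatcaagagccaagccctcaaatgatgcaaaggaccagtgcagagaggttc
SERPINB7: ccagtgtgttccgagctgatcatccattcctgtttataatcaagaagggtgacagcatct

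The arrays of the middle stage were dimmer than the others. In linear intensity units, the median signal per array ran from 35.2 through 39.3 to 48.6 on early arrays (lowest, median and highest), from 8.22 through 16.7 to 28.7 on middle arrays and from 32.2 through 39.6 to 47.0 on late arrays. No middle-stage array reached the dimmest array of another stage. Early arrays measured 68.8% to 78.1% of the probes well above background, middle arrays 48.5% to 71.5% and late arrays 68.4% to 73.7%.

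**Figure D1:**
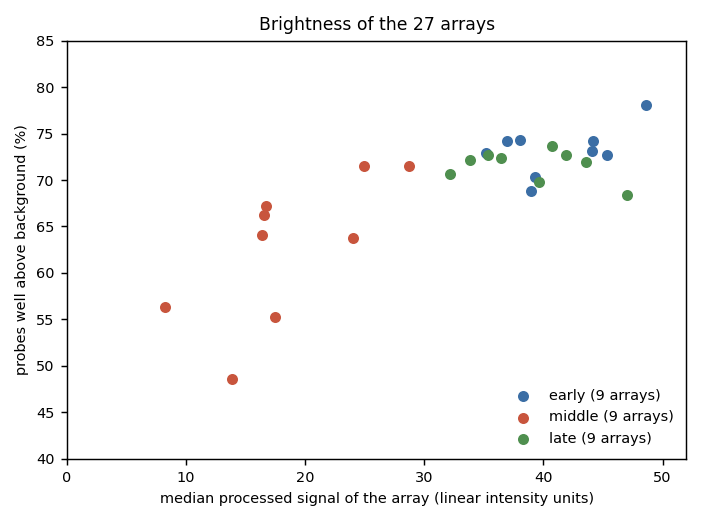
Median processed signal of each array (linear intensity units) against the percentage of its probes well above background, with 9 arrays per stage. The middle-stage arrays lie between 8.22 and 28.7 and all other arrays at 32.2 or more.

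A level below is the log2 processed signal minus the median of its array, so 0 is the middle of the array, and a probe is called measured on an array where its signal was well above background. The lowest level at which probes still counted as measured had a median of −3.01 on early, −1.75 on middle and −2.99 on late arrays, so the low end of the measured range lay higher on the middle arrays. Over all 15008 probes the median difference was 0.33 (first period), −0.28 (second) and 0.03 (total). Over the 6797 probes that every array measured well above background it was 0.08, 0.09 and 0.13. Member differences of the reported fit are given as measured. Apart from LOR, CDSN and SERPINB7, they are also given relative to each of these 2 medians in the first and second periods. Differences of other genes are given as measured, so a first-period rise near 0.33 is no larger than the shift of all probes. The part of the brightness in any difference was not tested. In these bulk biopsies, fewer cells of a type and less RNA per cell cannot be told apart.

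**Figure D2:**
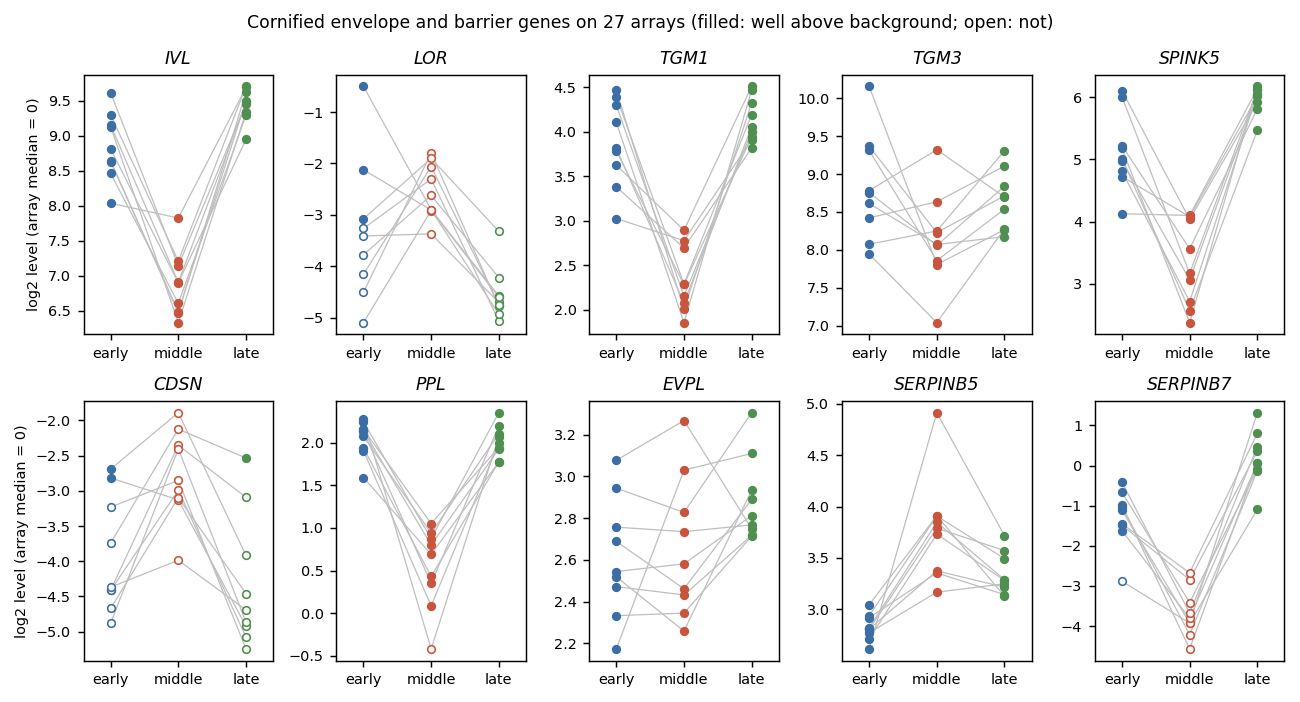
Log2 level of the 10 members on each array (array median = 0) by stage, with a line joining the arrays of an animal; filled points were well above background and open points were not. IVL, TGM1, SPINK5 and PPL fall in all 9 animals at the middle stage and rise again, whereas all 9 middle-stage points of SERPINB7 are open. The smallest SPINK5 change at the middle stage is −0.027.

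Of the cross-linking enzymes, TGM1 encodes the membrane-anchored transglutaminase that builds the envelope at the cell periphery. Its level ran from 3.02 through a median of 3.81 to 4.47 on the early arrays, from 1.85 through 2.28 to 2.89 on the middle arrays and from 3.82 through 4.05 to 4.51 on the late arrays, and all 27 arrays measured it. Every middle-stage array lay below every early and late array, and the early and late ranges overlapped. Between the early and middle stages the level fell by 1.54 (SE 0.19, n = 9 animals, limma adjusted *P* = 3.23e-06), which was −1.87 relative to all probes, and no animal went up. In the second period it rose by 1.80 (adjusted *P* = 2.37e-07; 2.08 relative to all probes) in all 9 animals. Relative to the probes measured on every array the 2 differences were −1.62 and 1.71. The total difference of 0.26 was not called (adjusted *P* = 0.388).

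TGM3 encodes a cytosolic transglutaminase that is activated by cleavage and cross-links small precursors before they join the envelope. Early-stage levels were 7.94, 8.76 and 10.2 (lowest, median and highest), middle-stage levels 7.04, 8.07 and 9.32, and late-stage levels 8.17, 8.70 and 9.31. The 3 ranges overlapped, and 3 of the 9 animals rose where 6 fell in the first period. That difference was −0.69 (SE 0.26, limma adjusted *P* = 0.0239), and the exact two-sided sign-flip test over the 9 animals gave *P* = 0.0586. It was −1.01 relative to all probes and −0.76 relative to the probes measured on every array. It was not called without animal 5, 7 or 9 (adjusted *P* = 0.0706, 0.0613 and 0.0694), nor without the 2 animals dimmest at the middle stage (4 and 9; adjusted *P* = 0.148), by the paired test of the methods (0.0836), on the scan day with both stages (0.0661) or in the fixed-block and slide 2 fits given below, and of 25 alternatives 16 called it, with adjusted *P* from 0.00106 to 0.189. The later rise of 0.52 was not called (limma adjusted *P* = 0.0758). That rise was 0.79 relative to all probes and 0.43 relative to the probes measured on every array. It was called in 5 of 21 alternatives: without animal 1 or 9 (adjusted *P* = 0.0305 and 0.0443), with only the 2 stages compared (0.026), by the paired test of the methods (0.0355) and after normexp correction, where it was 1.37 (0.000308). The highest adjusted *P* was 0.261. It was a rise in 8 of 9 animals, with an exact sign-flip *P* of 0.0352. The total difference of −0.17 (adjusted *P* = 0.717) became 0.048 without animal 9 and 0.059 after normexp background correction.

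Among the scaffold proteins, involucrin (IVL) is an early substrate that lines the inner face of the membrane. Early-stage IVL levels were 8.04, 8.81 and 9.61, middle-stage levels 6.33, 6.90 and 7.82, and late-stage levels 8.95, 9.48 and 9.71. The middle-stage arrays lay below all others, while early and late overlapped. In the first period IVL fell by 1.99 (SE 0.19, limma adjusted *P* = 1.61e-07; −2.31 relative to all probes) and rose by 2.57 in the second (adjusted *P* = 2.55e-09; 2.85 relative to all probes), in each case in all 9 animals. Relative to the probes measured on every array the 2 differences were −2.07 and 2.48. The smallest fall, in the animal that changed least, was −0.21 and the largest −2.80. Between the early and late stages IVL was higher by 0.58 in 8 of 9 animals (adjusted *P* = 0.0364), but this call was lost without animal 3, 4, 5, 6 or 8 (differences 0.62, 0.53, 0.55, 0.55 and 0.61, with adjusted *P* from 0.0585 to 0.0908) and under each of the 4 other scalings, where the difference stayed between 0.42 and 0.78. It was also lost from the series matrix values, with a random slide block and without the 2 animals dimmest at the middle stage (adjusted *P* = 0.0794, 0.638 and 0.0759), so that 9 of 21 alternatives called it.

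Loricrin (LOR), the glycine-rich protein that reinforces the mature envelope in skin, was well above background on only 3 early arrays and on no middle or late array. Early-stage levels were −5.10, −3.41 and −0.50, middle-stage levels −3.37, −2.62 and −1.80, and late-stage levels −5.06, −4.71 and −3.32. The ranges overlapped and the signal was mostly that of an unmeasured probe, so no fold is given. The fit called LOR lower in the second period (adjusted *P* = 0.000184) and in the total period (adjusted *P* = 0.0365), on arrays that mostly did not measure it. The total call was lost without animal 1, 2, 3, 4 or 6 (limma adjusted *P* from 0.052 to 0.108) and without the 2 animals dimmest at the middle stage (adjusted *P* = 0.0825). It was also lost under quantile normalization, normexp correction and a random slide block (0.138, 0.39 and 0.62) and by the paired test of the methods (0.093). LOR stayed lower at the late stage in each of these. A first-period call, as higher, appeared without animal 2 or 6 (limma adjusted *P* = 0.00378 and 0.045) and after normexp correction (adjusted *P* = 0.0165).

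The plakins PPL and EVPL encode periplakin and envoplakin, partners that tie desmosomes and keratin filaments to the forming envelope. PPL levels were 1.59, 2.13 and 2.27 on the early arrays, −0.42, 0.69 and 1.05 on the middle arrays, of which 8 of 9 measured it, and 1.77, 2.00 and 2.35 on the late arrays. The middle stage did not overlap with the others, and early and late did. PPL fell by 1.52 (SE 0.15, limma adjusted *P* = 2.25e-07; −1.84 relative to all probes) and rose by 1.48 (adjusted *P* = 1.05e-07; 1.76 relative to all probes) in all 9 animals. Relative to the probes measured on every array, PPL changed by −1.59 and 1.39. Its total difference was −0.04 (adjusted *P* = 0.913), or 0.05 after normexp correction.

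EVPL was not called in any period by the reported fit. Early-stage levels were 2.17, 2.54 and 3.08, middle-stage levels 2.26, 2.58 and 3.27, and late-stage levels 2.71, 2.81 and 3.31, and all ranges overlapped. The differences were 0.05 (SE 0.12, limma adjusted *P* = 0.744), 0.23 (adjusted *P* = 0.105) and 0.28 (adjusted *P* = 0.127). Relative to all probes they were −0.28 in the first period and 0.51 in the second. Relative to the probes measured on every array they were −0.03 and 0.14. The first-period direction was not stable: it was −0.37 after normexp correction (adjusted *P* = 0.0418, in a range up to 0.836) and −0.05 without animal 9. Without animal 8 the second and total differences were 0.32 and 0.35 and were called (adjusted *P* = 0.0231 and 0.0498), and the second-period difference ran from −0.00264 under cyclic loess to 0.71 after normexp correction, where it was called (adjusted *P* = 0.000663). A contrast between the PPL and EVPL changes was not tested.

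CDSN encodes corneodesmosin, an adhesive protein of the corneodesmosomes that hold cornified cells together. It was measured on 2 early arrays, no middle array and 1 late array, so no fold is given. Early-stage levels were −4.88, −4.37 and −2.69, middle-stage levels −3.99, −2.85 and −1.89, and late-stage levels −5.25, −4.69 and −2.53, with overlap throughout. The fit called it higher at the middle stage in the first period (limma adjusted *P* = 0.00304) and lower at the late stage in the second (adjusted *P* = 0.000189). Its first-period direction was the opposite under a fixed slide block, and also among the slide 2 arrays. Quantile normalization lost both calls (adjusted *P* = 0.181 and 0.0939) and a random slide block the first (0.095). These calls and directions concern levels at which the probe was mostly not measured.

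SPINK5 encodes LEKTI, a secreted Kazal-type inhibitor that restrains the kallikreins of desquamation. Early-stage levels were 4.13, 5.01 and 6.11, middle-stage levels 2.38, 3.17 and 4.10, and late-stage levels 5.47, 6.04 and 6.17. The early and middle ranges were separated only narrowly, the late arrays lay well above the middle ones, and early and late overlapped. SPINK5 fell by 1.83 (SE 0.24, limma adjusted *P* = 6.07e-06; −2.16 relative to all probes) and rose by 2.67 (adjusted *P* = 3.08e-08; 2.95 relative to all probes) in all 9 animals. Relative to the probes measured on every array the 2 differences were −1.91 and 2.58. The first-period change ran from −2.84 to −0.027, so the animal that changed least hardly fell. In the total period SPINK5 was higher by 0.84 in 8 of 9 animals (adjusted *P* = 0.0199). This call held without each animal in turn but not under quantile normalization, normexp correction, a random slide block or without the 2 animals dimmest at the middle stage (adjusted *P* = 0.0666, 0.062, 0.392 and 0.09), with differences of 0.69, 1.01, 0.96 and 0.75. The lowest over all alternatives was 0.0105.

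SERPINB5 encodes maspin, a clade B serpin of epithelial cells that does not inhibit proteases in the classical way. Early-stage levels were 2.62, 2.81 and 3.04, middle-stage levels 3.17, 3.79 and 4.91, and late-stage levels 3.13, 3.28 and 3.72. Every middle and every late array lay above every early array, and middle and late overlapped. It was the only member measured on all arrays that was called higher in the first period, by 0.95 (SE 0.15, limma adjusted *P* = 2.61e-05), in all 9 animals. That was 0.62 relative to all probes and 0.87 relative to the probes measured on every array. Its lowest value over the scalings was 0.33, still called. In the second period SERPINB5 fell by 0.43 (limma adjusted *P* = 0.013) in 8 of 9 animals. That was −0.16 relative to all probes and −0.53 relative to the probes measured on every array. The direction turned to 0.28 after normexp correction, and the call was lost with a random slide block (adjusted *P* = 0.139). Its linear processed signal, by contrast, had a median of 280 on early, 246 on middle and 385 on late arrays, so the middle-stage rise is a rise relative to the array median and not in raw signal.

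The total difference of SERPINB5 was 0.52 (limma adjusted *P* = 0.018) in all 9 animals. It was not called without animal 1 (0.49, adjusted *P* = 0.0554) or under 75th percentile scaling, quantile normalization, cyclic loess, the series matrix values or a random slide block, where it lay between 0.37 and 0.43, and its adjusted *P* ran from 0.00309 to 0.576 over all alternatives. The highest middle-stage value belonged to animal 4, without which the differences were 0.78, −0.34 and 0.44, still called.

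SERPINB7 encodes an intracellular clade B serpin of the upper epidermis, whose loss in people causes a keratosis of the palms and soles. It was well above background on 8 early arrays, no middle array and all 9 late arrays. Early-stage levels were −2.88, −1.11 and −0.41, middle-stage levels −4.57, −3.80 and −2.67, and late-stage levels −1.09, 0.07 and 1.32. The early array that did not measure it (animal 1) reached into the middle-stage range, and the late arrays lay above all middle ones. In linear units the signal was 4.78, 17.8 and 29.3 on early arrays, 1.09, 1.28 and 2.17 on middle arrays and 17.1, 44.0 and 88.2 on late arrays.

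Because no middle array measured SERPINB7, only approximate bounds can be given for the periods that chose it. From the lowest level measured on each middle array, averaged over the 9 (mean −1.66), these were a 1.29-fold fall in the first period and a 3.61-fold rise in the second. They are not strict limits, since a probe above that level can still go unmeasured. The early mean includes animal 1, whose array did not measure SERPINB7. Both bounds depend on that lowest measured level, which was higher on the middle arrays than on the others and reached −0.35 there, above the early mean of SERPINB7 (−1.29). After normexp correction the differences were −0.040 and 0.46, smaller than these bounds. The total period was not used to choose the gene, and there SERPINB7 rose by 1.49 (SE 0.31, limma adjusted *P* = 0.00216) in all 9 animals, with overlapping ranges. The rise stayed between 1.15 and 1.67 when each animal was left out in turn (adjusted *P* at most 0.0087). It was 0.42 after normexp correction, still called. With the slide as a random block it was 1.61 and was not called (adjusted *P* = 0.212, in a range from 0.000856).

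Counted over the 9 members tested in the first period, 7 were DEGs (2 higher, 5 lower), with a median difference of −0.69. For comparison, 66.5% of all probes were called in that period, 45.3% as higher and 21.2% as lower, so the number of calls was near the background. The share called lower was above it, a difference that was not tested. In the second period 7 of 9 were DEGs (4 higher, 3 lower; median 0.52), against 71.5% of all probes, 26.7% as higher and 44.8% as lower. In the total period 5 of 10 were DEGs (4 higher and 1, LOR, lower; median 0.27), against 20.0% of all probes, 11% as higher and 9.01% as lower. The first and second periods share the middle-stage arrays, so a fall in the former and a rise in the latter are not independent of each other.

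Low signal entered these counts, since CDSN and LOR were counted as well. Among the 6 members measured on all 18 arrays of the first period, 4 were lower and 1 higher, with a median difference of −1.11. The bright probes beside them were lower in 26.9% and higher in 34.9%. Bright probes were those measured on all 27 arrays, a stricter rule than all 18. PPL, counted in the total period below, was measured on 26. Among the 6 in the second period, 3 were higher and 1 lower (median 1.16), beside 37.4% and 30.7% of the bright probes, and among the 7 in the total period, 3 were higher and 0 lower (median 0.28), beside 17.6% and 7.99%. The ranges of the stages compared did not overlap for 5 of 9, 4 of 9 and 1 of 10 tested members in the first, second and total period, beside 13%, 20.6% and 6.46% of the 14954 probes without a missing value and 17.5%, 26% and 10.3% of the bright ones among them, and for SERPINB7 in the second period by its choice.

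**Figure D3:**
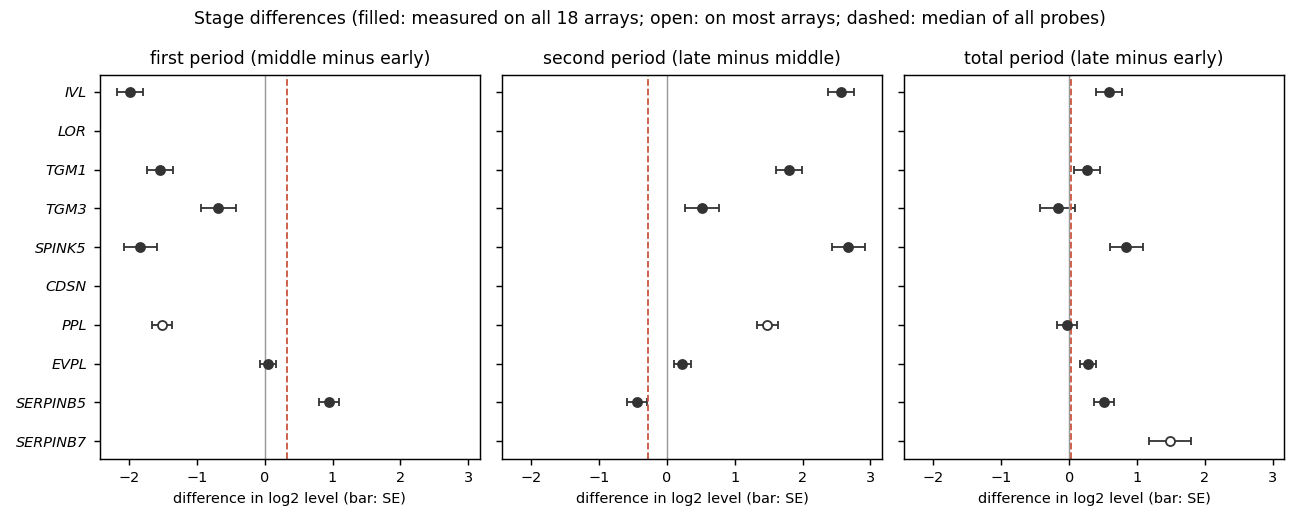
Difference in log2 level between stages with its SE for the members measured on most arrays of both stages (filled points were measured on all 18), with a dashed line at the median of all probes. In the first period IVL, TGM1, SPINK5 and PPL lie between −1.99 and −1.52 and SERPINB5 at 0.95, and in the second period their signs are opposite, though SERPINB5 is 0.28 there after normexp correction.

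The stages were unevenly spread over the 5 slides. Slide 2 held the early array of animal 9 with the middle arrays of animals 1 to 7, slide 1 the other 8 early arrays, slide 3 the other middle arrays, and the late arrays shared no slide with another stage. For the second and total periods slide and stage therefore cannot be told apart. On slide 2 the early IVL level was 8.81 against 6.33 to 7.82 on the 7 middle arrays. All 7 middle arrays likewise lay below the early array for TGM1, TGM3, SPINK5 and PPL, and above it for EVPL and SERPINB5. This comparison has 1 early array, from an animal with no middle array on that slide.

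With the slide as a fixed block beside the animal, limma called 0 of the 9 members in the first period, with 3 (IVL, TGM3 and PPL) at an unadjusted *P* below 0.05 and 8.36% of all probes called. This share depends on the late arrays, which enter that fit only through the animals and the variance: fitted on the early and middle arrays alone, a form chosen after seeing the data, the same block called 0 members and 0.00666% of all probes, with TGM3 alone at an unadjusted *P* below 0.05 and SPINK5 at −0.90. Within slide 2 alone the early stage is 1 array and the spread comes only from the 7 middle arrays. Calls or missing calls there therefore cannot decide whether a member changed. IVL was −1.94 with the block and −1.99 within slide 2, TGM1 −1.19 and −1.98, SPINK5 −1.29 and −1.41, PPL −1.37 and −1.14, TGM3 −2.78 and −2.04, SERPINB5 0.80 and 0.72, and EVPL 0.28 and 0.35. The SE of IVL was 0.81 with the block, against 0.19 without it. With the slide as a random block (consensus correlation 0.293) 6, 6 and 0 members were called, against 45.5%, 50% and 1.65% of all probes.

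**Figure D4:**
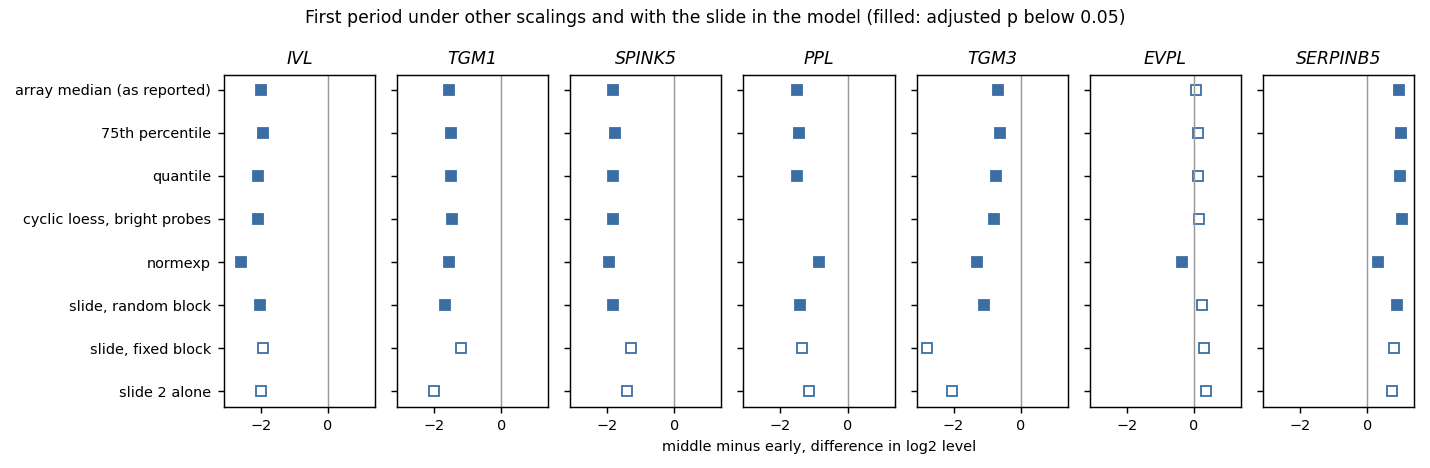
First-period difference in log2 level of 7 members under 5 scalings and 3 ways of accounting for the slide (filled squares: adjusted *P* below 0.05). IVL, TGM1, SPINK5, PPL and TGM3 stay negative and SERPINB5 positive throughout, no square is filled for the fixed block or slide 2 alone, and EVPL turns negative (−0.37) under normexp correction.

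The scaling moved the share of calls over all probes that were higher. For the first period 68.1% of the called probes were higher, against 51.3% after quantile normalization, 50.8% after cyclic loess and 50.2% with only probes measured on all arrays of a stage. In the second period 37.4% were higher, against 51.3%, 50.3% and 57.9%. For the total period it was 54.9%, against 33.8% under 75th percentile scaling and 67.2% after normexp correction. Under the 4 scalings the first-period difference stayed between −2.58 and −1.93 for IVL and between −1.56 and −1.46 for TGM1, called each time. Other sizes moved more, though they too were called each time: TGM3 lay between −1.31 and −0.62 and SERPINB5 between 0.33 and 1.04, and PPL, which had 3 scalings, between −1.51 and −0.85, with a rise of at least 0.90 in the second period. The value farthest from the reported one came from normexp correction for each of these 3.

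Other genes of cornification were taken from 7 lists, of which 138 genes were on the array. In the first period 42 were higher and 44 lower, in the second 54 and 42, and in the total period 19 and 8, with median differences of 0.06, 0.20 and 0.08 beside 0.33, −0.28 and 0.03 for all probes. Of all probes 45.3% were higher and 21.2% lower in the first, 26.7% and 44.8% in the second and 11% and 9.01% in the total period. Many of these probes were dim. Of the 68 genes measured on all arrays of both stages, 14 were higher and 26 lower in the first period and 34 higher and 14 lower in the second, and of 98 such genes in the total period 16 were higher and 4 lower. The bright-probe shares given above stand beside these counts and those of single lists below, though bright probes were measured on all 27 arrays and not only on the stages compared. Because slide and scaling change these counts, the named genes were also followed through the alternatives. Calls lost there are named after the lists.

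**Figure D5:**
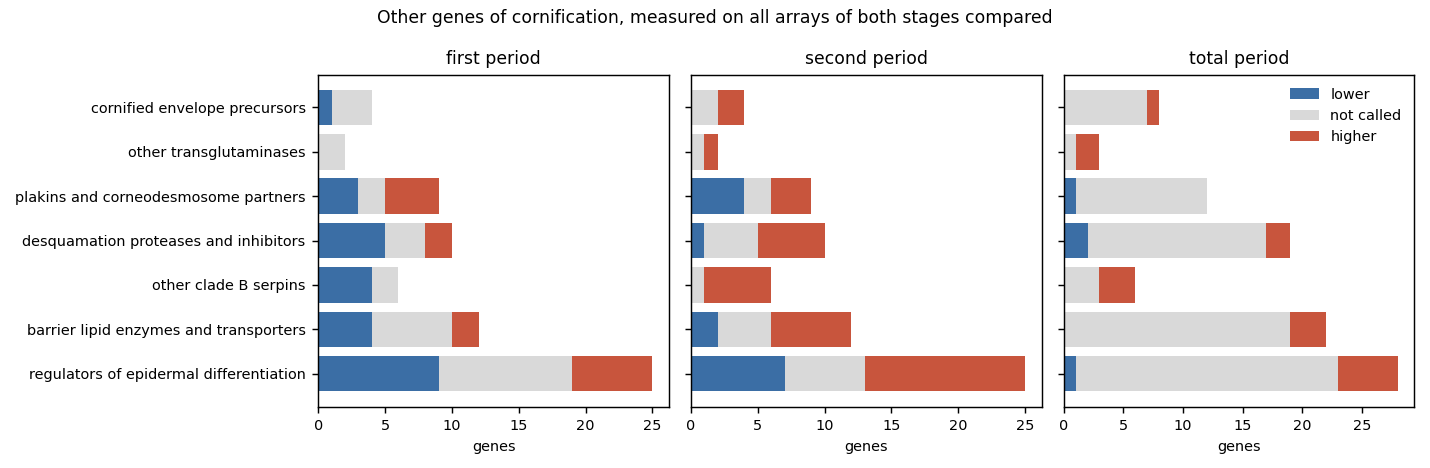
Number of genes called lower, not called and called higher (adjusted *P* below 0.05) in each of 7 lists, among genes measured on all arrays of both stages compared. The clade B serpins outside the members have 4 of 6 lower in the first period and 5 of 6 higher in the second.

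Of the envelope precursors, 16 of 40 were on the array and 4 of these were measured on all arrays of the first period. ANXA1, an envelope-associated annexin, fell by 0.36 in the first period (limma adjusted *P* = 0.045), a call lost under 75th percentile scaling, quantile normalization and normexp correction (adjusted *P* = 0.0887, 0.088 and 0.0506) and in every slide alternative. CSTB, a cystatin that can be cross-linked into the envelope, rose by 0.80 in the second (adjusted *P* = 1.41e-05) and by 0.59 in the total period (adjusted *P* = 0.00215), in all 9 animals, and cornifelin (CNFN) rose by 0.58 in the second. LCE1B, measured on 9 early, 8 middle and 6 late arrays, fell by 2.75 and 2.13 in these periods (limma adjusted *P* = 3.05e-10 and 5.34e-08), in all 9 animals. PI3, measured on 9 early, 8 middle and 9 late arrays, fell by 3.03 in the first period (limma adjusted *P* = 0.0048), with 1 of 9 animals higher. It rose by 2.46 in the second (adjusted *P* = 0.016) in 8 of 9 animals, with a wide spread at the middle stage (SD 2.82). Of all 16 genes 4 were higher and 5 lower in the second period, and 1 and 1 in the total period. Of the other transglutaminases, TGM5 rose by 0.80 in the second and 0.82 in the total period, and TGM6 by 1.14 in the total period (adjusted *P* = 1.08e-05), each total rise in all 9 animals. TGM6 was measured on 8 of 9 middle arrays.

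The plakins and partners of corneodesmosomes had 4 higher and 3 lower among 9 measured genes in the first period. The desmosomal cadherin DSC2 fell by 1.05 and rose by 1.48 (limma adjusted *P* = 0.000509 and 1.23e-05), although its first-period difference was 0.28 with the slide as a fixed block. PERP, a desmosomal membrane protein, fell by 0.68, a fall that turned to 0.08 with the fixed block, and rose by 0.82. The cytoskeletal linker MACF1 went the other way, up by 1.00 and down by 1.27, as did plakoglobin (JUP), up by 0.56 and down by 0.58. MACF1 and JUP lost both calls after normexp correction, with 0.30 and −0.33 for MACF1 and 0.088 and −0.099 for JUP. DST, a plakin of basal cells, was lower by 0.50 in the total period (adjusted *P* = 0.00416), the only call of this list there.

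Among proteases and inhibitors of desquamation, 5 of 10 measured genes were lower and 2 higher in the first period, and 5 were higher and 1 lower in the second. Lysosomal proteases had the largest falls among the measured genes of this list: CTSD fell by 2.09 (SE 0.14, limma adjusted *P* = 2.51e-09) and CTSB by 1.98 in the first period, with rises of 2.13 for CTSD and 1.99 for CTSV in the second, each in all 9 animals. Kallikrein KLK8 rose by 0.53, though it was −0.37 under a fixed slide block and −0.00192 within slide 2, then fell by 0.99 and was lower by 0.47 in the total period. The inhibitor SPINT2 was higher by 0.34 in the first period, or −0.09 after normexp correction. The rise is 0.011 relative to all probes, whereas the median of the probes measured on every array, as SPINT2 was, shifted by 0.08. Over the total period KLK5, a kallikrein that LEKTI inhibits, rose by 1.21 (adjusted *P* = 0.00121) in 8 of 9 animals, CTSC rose by 0.38 and BLMH fell by 0.52.

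The clade B serpins outside the members were 7 on the array, 6 of them measured throughout. SERPINB4 fell by 1.88 and rose by 1.72 (limma adjusted *P* = 4.11e-05 and 6.62e-05), and SERPINB2, which is itself an envelope component, fell by 1.58 and rose by 1.65 (adjusted *P* = 1.04e-07 and 1.83e-08). Under a fixed slide block the first-period differences were −0.68 and −0.48, and within slide 2 they were −1.96 and −1.47, none called. Over the total period SERPINB10 and SERPINB8 rose by 0.61 and 0.50 in all 9 animals. No measured gene of this list was higher in the first period or lower in the second.

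Lipids fill the space between cornified cells, and of their enzymes and transporters 28 of 35 were on the array. SPTLC1, a subunit of the enzyme that starts ceramide synthesis, fell by 1.64 and rose by 2.09 (limma adjusted *P* = 1.1e-07 and 1.9e-09), and KDSR, which acts next, rose by 0.85 in the second period. ELOVL6, a fatty acid elongase, rose by 1.70 and fell by 1.93, and the ceramide hydroxylase DEGS2 rose by 0.78 and fell by 1.04, each in all 9 animals. ABHD5 fell by 0.83 in the first period, but was 0.21 with the slide as a fixed block. Over the total period ELOVL7 rose by 1.01 and SDR9C7 by 0.49, with 8 and 6 middle arrays measured. ELOVL1 had 2 probes, which fell by 1.16 and 2.36 in the first period and rose by 0.82 and 2.46 in the second, with 7 and 6 of 9 middle arrays measuring them.

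Among regulators of epidermal differentiation, 6 of 25 measured genes were higher and 9 lower in the first period, and 12 higher and 7 lower in the second. KLF4, a transcription factor needed for the skin barrier, fell by 1.67 and rose by 2.06 (limma adjusted *P* = 1.31e-05 and 6.51e-07) in all 9 animals. FOS fell by 1.75 in the first period (a fixed slide block gave −0.58 for KLF4 and −0.81 for FOS, and slide 2 alone −1.60 and −1.81, none called), with a spread at the late stage (SD 1.00) wider than at the early stage (SD 0.36). JUND and OVOL2 rose by 0.86 and 0.63 in the first period, but by 0.38 and 0.025 after normexp correction, not called (adjusted *P* = 0.261 and 0.944), and in the second JUN fell by 0.94 and JUND by 0.69, but −0.17 and 0.03 after normexp correction, where neither was called. Between the early and late stages the vitamin D receptor VDR rose by 0.89 (adjusted *P* = 4.35e-05), ZNF750 rose by 0.67 and PRKCA fell by 0.36.

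Of the genes named from these lists by the naming rule below, 3 of 19 in the first period (MACF1, CTSD and CTSB) were still called in the same direction under a fixed slide block. Fitted on the early and middle arrays alone, the same block called 1 of 15008 probes, as higher. CTSD and CTSB, which fell, were therefore not called there. Within slide 2, which has 1 early array, all of the 19 but KLK8 kept their direction. Normexp correction kept 11 of 19 first-period, 15 of 20 second-period and 6 of 15 total-period calls. Beside the genes given above it lost DEGS2 in both periods (0.32 and −0.31), KLK8 in the first and 9 in the total period. Of these 9, the differences of CSTB (0.86), CTSC (0.63), SERPINB10 (0.84), SERPINB8 (0.74) and ZNF750 (0.86) were larger than reported, and those of BLMH (−0.29), KLK8 (−0.18), SDR9C7 (0.083) and PRKCA (−0.16) smaller. With the slide as a random block TGM6 and VDR alone kept their calls in the total period, though the sizes of the others stayed near those reported (TGM5 0.78, ELOVL7 1.16 and KLK5 0.98, for example), while 14 of 19 did in the first, without ANXA1, PERP, SPINT2, KLK8 and ABHD5, and 16 of 20 in the second, without CNFN, TGM5, PERP and JUP. Under 75th percentile scaling CNFN in the second and CTSC and SDR9C7 in the total period were lost, and under quantile normalization CNFN again and DST, CTSC and SERPINB8.

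Markers of the cell types in a rumen biopsy were read beside the members. Keratins marked the samples as stratified epithelium: the summed level of 11 basal markers, brightest KRT5, had stage medians of 10.5 (early), 10.2 (middle) and 10.2 (late), and that of 9 suprabasal markers, brightest KRT6B, 12.2, 11.95 and 12.4. KRT4 was never above background. The suprabasal sum fell as low as 10.2 on a middle array. For the first period, 3 basal markers were called higher and 3 lower, and 2 suprabasal markers higher and 3 lower. Among the 5 suprabasal markers measured on all arrays of both stages, 0 were higher and 3 lower (median −0.91), and in the second period 3 were higher and 0 lower (median 0.60).

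Markers of the tissue under the epithelium were read in the same way. The summed level of 7 red blood cell markers, brightest HBA, had a median of 5.94 on early, 7.13 on middle and 5.83 on late arrays, and the lowest middle array (6.71) was above the highest early (6.10) and late (6.51) arrays. For 9 smooth muscle markers, brightest ACTA2, the medians were 7.46, 8.34 and 7.18, and for 10 fibroblast markers, brightest COL6A1, they were 8.64, 9.28 and 8.75, both with overlapping ranges. Endothelium (10 markers, brightest CLDN5, with CDH5 never above background) was at 5.86, 6.17 and 5.90, leukocytes (15 markers, brightest LAPTM5, with ITGAM never above background) at 7.13, 7.27 and 6.94, and proliferation (7 markers, brightest PCNA) at 6.01, 6.22 and 5.95. Called higher between the early and middle stages were 5 of 7 red blood cell, 5 of 9 smooth muscle, 3 of 10 fibroblast, 4 of 10 endothelium, 5 of 15 leukocyte and 2 of 7 proliferation markers, beside 45.3% of all probes, and called lower were 0, 0, 1, 1, 3 and 1, beside 21.2%. Between the middle and late stages 4 red blood cell, 8 smooth muscle, 5 fibroblast, 4 endothelium, 7 leukocyte and 3 proliferation markers were lower, beside 44.8%, and 0, 0, 1, 0, 5 and 1 higher, beside 26.7%. With a random slide block 4 red blood cell, 2 smooth muscle and 1 fibroblast markers were lower in that period. After normexp correction these were 5, 6 and 1. The first-period counts depend on the setting: quantile normalization left 2 red blood cell markers higher and 1 lower and 2 smooth muscle markers higher, a random slide block left 3 and 1 higher, and 1 fibroblast marker was higher after normexp correction but 6 under 75th percentile scaling. Under a fixed slide block 0, 1 and 0 of these 3 lists' markers were higher, and within slide 2 none was. The part of these cell types in the members' differences was not tested.

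Some members lie near each other in the genome. LOR and IVL probes lie 609.6 kb apart on chromosome 3 with 2 other probes between them, LELP1 (well above background on no array) and SPRR3 (on 1 early, 2 middle and 5 late arrays). SERPINB5 and SERPINB7 lie 259.9 kb apart on chromosome 24, and both probes between them, SERPINB4 and LOC511106, were measured on every array. LOC511106 fell by 2.31 in the first period and rose by 3.16 in the second and 0.85 in the total period (limma adjusted *P* = 3.75e-07, 3.45e-09 and 0.0171). Within this stretch the measured changes thus went in both directions, SERPINB5 rising where the 2 genes beside it fell.

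The genes whose level over the 27 arrays was most like that of a member were sought among 6758 probes outside the members. These coefficients (Pearson) are descriptions, since the arrays share stages, slides and brightness. MFGE8 stood closest to IVL (0.984), followed by PTPN6 (0.980), and closest to TGM1 (0.940), followed by LOC511106 (0.929) and LAMP3 (0.927). ENPP3 (0.952), MFSD12 (0.952) and MFGE8 (0.950) were most like SPINK5, and KAT8 (0.961), APEH (0.959) and MRPL28 (0.956) most like PPL. GCGR (0.951), METTL21A (0.948) and RNF222 (0.943) were most like SERPINB5. TGM3 had weaker matches in TAP (0.865), PRSS53 (0.859) and LBP (0.795), and EVPL in PRR15L (0.787) and SUCLG2 (0.786).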

How the data were processed

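The deposited scanner output of each array held processed intensity values from Agilent Feature Extraction, with background handled by that software, and 0/1 calls, as deposited, for outlier, saturated and well-above-background spots. The authors also deposited a series matrix of log2 values, which lay close to 75th percentile scaling (SD of the difference over probes at most 0.0286) and served as an alternative. The file headers name Feature Extraction 11.0.1.1 and the submitters' processing notes 9.5.

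Processed signals of 15110 non-control spots were taken to log2, the array median was subtracted, outlier spots were set to missing, and replicate spots were averaged into 15008 probes. No member had an outlier or saturated spot. limma 3.58.1 (lmFit, eBayes; R 4.3.3, statmod 1.5.0, data.table version 1.17.8) fitted 1 mean per stage and the animal as a block to all 27 arrays, with Benjamini-Hochberg adjustment over all 15008 probes. A probe was called a DEG at adjusted *P* < 0.05. Pairing was checked: after stage means were removed, arrays of the same animal had a mean correlation of 0.158 (24 of 27 pairs above 0) and arrays of different animals −0.0198. The extraction label names other tissues than the titles do, so keratin levels were checked.

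Gene names came from the array, with current symbols from a RefSeq table (ARS-UCD2.0). Members and lists were chosen with earlier results of these data known. All members are named. From each list and period, the named genes were the 2 that rose most and the 2 that fell most, among DEGs that every array of both stages measured, and for likeness the 3 closest genes, leaving out those with only an accession as a name. LELP1, SPRR3, LOC511106, ELOVL1, LCE1B and PI3 were named outside that rule, after their values were seen. A bound on a fold uses the lowest level at which probes were measured on the arrays that did not measure the member, and is approximate.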

Additional observations from a re-analysis of the deposited data

Results flagged for a closer look

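In 3 of 30 groups of 9 arrays (10 members at 3 stages), a single array stood far from the other 8. Chance alone gives about 1 in 20 such groups. The LOR level of animal 9 at the late stage was −3.32, with the next highest at −4.22, and no late array measured LOR. The SERPINB5 level of animal 4 at the middle stage was 4.91, with the next at 3.91, on the array with the lowest median signal (8.22). The SERPINB7 level of animal 1 at the early stage was −2.88, with the next lowest at −1.62, and it was the only early array that did not measure SERPINB7. Without animal 1 the total rise of SERPINB7 was 1.15 (limma adjusted *P* = 0.00484).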

How the results depend on the processing

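In the first period 7 of 9 members were called. A fixed slide block gave 0, 0 also on the early and middle arrays alone (a form chosen after seeing the data), slide 2 alone gave 0, the other alternatives gave 5 to 9, and leaving out each animal in turn gave 6 to 8. The fixed slide block called 8.36% of all probes in that period, and 0.00666% on the early and middle arrays alone, against 66.5% in the reported fit. In the second period (7 of 9) cyclic loess gave 4, where only members measured on all 27 arrays were tested, the others gave 5 to 8, and leaving out each animal gave 7 to 8. Cyclic loess called 70.4% of its 6764 probes there, and the reported fit 71.5% of all probes. The total count of 5 was 3 with 75th percentile scaling and 3 from the series matrix, 1 under quantile normalization and under cyclic loess, 2 after normexp correction and with a 2-fold minimum, 0 with a random slide block, and 3 to 5 without each animal (3 without animal 1, 3, 4 or 6). Of all probes tested, the reported fit called 20% in that period. That share was 19.4% with 75th percentile scaling, 19.5% from the series matrix and 14.4% under quantile normalization. It was 29.2% under cyclic loess, 7.96% after normexp correction, 1.65% with a random slide block and 14.9% to 20.4% without each animal. Without the 2 animals dimmest at the middle stage, an alternative chosen after seeing the data, the total count was 2, beside 21.5% of all probes. Without the animal block (no replicate block) the counts were 7, 7 and 5. The cause of these changes was not tested.

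Some directions changed. After normexp correction TGM3 (total) was 0.059, PPL (total) 0.051, EVPL (first) −0.37, SERPINB5 (second) 0.28, SPINT2 (first) −0.087 and JUND (second) 0.0303. Under the fixed slide block, first-period differences were −0.48 for CDSN, 0.28 for DSC2, 0.084 for PERP, −0.37 for KLK8 and 0.21 for ABHD5, on the early and middle arrays alone −0.66 for CDSN and −0.37 for LOR, and within slide 2 they were −0.24 for CDSN and −0.00192 for KLK8. EVPL (first) was −0.088 on the scan day with both stages and −0.066 without the 2 dimmest animals, which also gave 0.00734 for TGM3 (total). Leaving out each animal gave −0.053 (without animal 9) to 0.087 for EVPL (first) and −0.34 to 0.048 (without animal 9) for TGM3 (total). EVPL (second) was −0.00264 under cyclic loess. Of the values for tested members, 183 of 220 in the first, 173 of 184 in the second and 166 of 204 in the total period kept direction and side of the threshold.

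For the other genes of cornification, 42 raised and 44 lowered in the first period became 22 raised under quantile normalization, 19 raised among well-measured probes, 4 and 6 under the fixed slide block, and 0 and 0 within slide 2. Over all probes, 6796 were raised and 3188 lowered in that period. Of these, 3677 were raised under quantile normalization and 3195 among the 10165 well-measured probes. Under the fixed slide block 1035 of all probes were raised and 220 lowered. In the second period 42 lowered became 20 under quantile normalization and 17 among well-measured probes. Over all probes, 6721 lowered became 3860 and 2900 under the same 2 settings. In the total period 19 raised and 8 lowered became 11 and 15 under 75th percentile scaling, 9 and 2 after normexp correction, and 2 and 2 under the random slide block. All probes shifted likewise there, with 1647 raised and 1352 lowered in the reported fit. These became 985 and 1928 under 75th percentile scaling, 803 and 392 after normexp correction, and 82 and 166 under the random slide block. The slide alternatives for these lists were chosen after seeing the data. On the early and middle arrays alone, the fixed slide block called 1 of all 15008 probes in the first period, as higher. No list gene was therefore lowered there, and at most 1 was raised.

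A fixed slide block could not be fitted for the second and total periods, since late arrays share no slide with other stages, and cyclic loess gave no value for PPL, LOR, CDSN and SERPINB7. The 9 animals per stage and the dim middle arrays limit the precision. Low signal limits LOR, CDSN and SERPINB7 most, and slide, brightness and stage cannot be fully told apart.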
